A study of Mus musculus with 27 samples.

Results

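The major urinary protein (Mup) genes of the mouse were described in hepatocytes of 9 inbred strains. The 10 genes Mup1, Mup2, Mup3, Mup7, Mup10, Mup11, Mup15, Mup17, Mup20 and Mup21 were taken by their GENCODE M21 symbols, and all 10 were found among the 43346 genes of the count table. The table held 21 annotated Mup genes in all, so that 11 lay outside these 10, and 27 Mup pseudogenes. RNA sequencing was done on hepatocytes, the main cells of the liver, of female mice aged 12 weeks. The wild-derived strains were CAST/EiJ, PWK/PhJ and WSB/EiJ, and the classical laboratory strains NZO/HlLtJ, C57BL/6J, NOD/ShiLtJ, A/J, 129S1/SvImJ and DBA/2J. Each gave 3 libraries, described as biological replicates. The labels name no treatment and no engineered allele. Library totals ran from 17015956 to 35078511 estimated counts. The summed level of 9 hepatocyte markers ran from 121159 to 369295 CPM, which are counts scaled to the library size, far above that of any other cell type checked.

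Major urinary proteins are small secreted carrier proteins of the lipocalin family. The liver makes them and releases them into the blood, from which they are filtered into the urine, where they bind and slowly release volatile pheromones or act as signals themselves. Their genes lie in a dense cluster of recent copies, and their transcription in the liver is known to respond to the pulses of growth hormone, to thyroid hormone and to androgens and glucocorticoids, with higher output in males. All mice here were female.

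All 10 genes lie on the minus strand of chromosome 4 of GRCm38. The first in order along the chromosome was Mup7 (chr4:60066469-60070475), followed by Mup2 (chr4:60135932-60154289), Mup1 (chr4:60498012-60501960), Mup10 (chr4:60578260-60582199), Mup11 (chr4:60658466-60662411), Mup15 (chr4:61435790-61439743) and Mup17 (chr4:61591929-61595871). Mup20 (chr4:62050234-62054158), Mup3 (chr4:62083476-62087342) and Mup21 (chr4:62147932-62150863) lay at the far end. These positions belong to the C57BL/6J reference. The number and order of Mup genes in the genomes of the other strains were not analysed here.

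The coding sequences fell into a near-identical group and a group of separate genes. A stretch of 60 coding bases, in which the 10 genes differ at 20 positions, is shown 5′ to 3′ on the coding strand because it separates the groups. Capitals mark bases that differ from the commonest base of the 10 genes at that position. The sequences come from the GENCODE M21 transcripts on GRCm38.
Mup7, chr4:60068915-60068974: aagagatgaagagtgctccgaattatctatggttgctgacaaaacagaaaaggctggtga
Mup10, chr4:60580693-60580752: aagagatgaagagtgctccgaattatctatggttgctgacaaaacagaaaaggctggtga
Mup17, chr4:61594365-61594424: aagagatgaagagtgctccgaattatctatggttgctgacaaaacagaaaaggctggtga
Mup1, chr4:60500453-60500512: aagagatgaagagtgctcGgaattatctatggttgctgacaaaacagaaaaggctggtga
Mup2, chr4:60138401-60138460: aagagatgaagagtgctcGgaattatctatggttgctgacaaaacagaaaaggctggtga
Mup11, chr4:60660902-60660961: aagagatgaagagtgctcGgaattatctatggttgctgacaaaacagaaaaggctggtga
Mup15, chr4:61438237-61438296: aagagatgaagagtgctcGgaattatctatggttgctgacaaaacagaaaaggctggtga
Mup20, chr4:62052650-62052709: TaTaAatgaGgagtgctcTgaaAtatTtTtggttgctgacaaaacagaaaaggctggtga
Mup3, chr4:62085973-62086032: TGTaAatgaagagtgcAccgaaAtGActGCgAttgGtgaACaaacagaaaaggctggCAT
Mup21, chr4:62149368-62149427: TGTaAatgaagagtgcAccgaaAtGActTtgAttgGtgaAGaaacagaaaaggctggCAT
Mup7, Mup10 and Mup17 shared every base of the stretch, and Mup1, Mup2, Mup11 and Mup15 differed from them at the same single position. Over the aligned coding bases these 7 genes were 98.53% to 99.82% identical to each other, with 1 to 8 differing bases in any of their 21 pairs. A gap of 3 bases in the pairs with Mup11 is not counted there. Mup20 was 90.61% to 91.53% identical to the 7. Mup3 was 83.98% to 84.9% identical to them and Mup21 84.16% to 85.08%, while Mup3 and Mup21 were 96.34% identical to each other.

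Mup2 and Mup15 differed at 2 of 543 coding bases, C13T and G472A, where the first base is that of Mup2, the second that of Mup15, and positions count from the A of the start codon. They are shown because Mup15 was high and Mup2 nearly absent in C57BL/6J, while Mup2 was the higher of the pair in the other 8 strains, and capitals mark the differing base.
Mup2, coding bases 1 to 32: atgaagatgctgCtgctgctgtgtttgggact
Mup15, coding bases 1 to 32: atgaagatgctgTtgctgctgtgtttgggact
Mup2, coding bases 452 to 491: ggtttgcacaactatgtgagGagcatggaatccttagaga
Mup15, coding bases 452 to 491: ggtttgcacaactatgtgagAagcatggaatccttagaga
Mup11 and Mup18, a gene outside the 10, differed at a single coding base, G252C, with the base of Mup11 first. Mup9 and Mup18 shared all their aligned coding bases.

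This likeness limits how reads could be told apart. Of all 50-base windows of a gene's transcript, 0% were unique to Mup2 and 0% to Mup15 when searched in the transcripts of all other genes. The unique share was 3.64% for Mup7, 5.24% for Mup1, 11.01% for Mup11, 13.8% for Mup10 and 21.9% for Mup17. It reached 49.5% for Mup20, 80.7% for Mup21 and 84.4% for Mup3. With windows of 100 bases the share was 2.66% for both Mup2 and Mup15. Most windows of Mup3 and Mup21 and about as many as not of Mup20 were thus unique, while a level of any of the first 7 rests on how the counting program divided reads among near-identical copies.

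The counts carry the trace of that division. An estimated count that is not whole within 0.001 means that a fraction of a read was assigned. Mup1, Mup2, Mup3, Mup7, Mup10, Mup11, Mup17 and Mup21 had such counts in 27 of 27 libraries. Mup15 had them in 22 libraries, since in the others its count lay within 0.001 of 0 or of another whole number, and Mup20 in 12. Among all 14482 genes tested, 3096 (21.4%) were not whole in over 20 libraries. Levels of single genes of the near-identical group are thus estimates. A sum over the 15 near-identical genes of the family does not depend on how reads were divided among them, while sums over pairs of genes still share reads with further copies.

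The upstream sequences of the near-identical genes were also alike where their windows overlap. RefSeq promoters (GRCm38.p6) were found for 8 of the 10 genes, and Mup1 and Mup20 had no entry. In the 250 bases before the annotated start, the string TATATAAG, a TATA-box sequence, occurred in 6 of the 8, compared with 307 of 32851 promoters of all genes (0.935%) on either strand. Mup7 and Mup11 were the 2 without it before the start. In Mup11 the string spans the annotated start, its first base lying 2 before it, and in Mup7 it was not in the window, which holds 50 further bases after the start. The last 60 bases before the start are shown for genes whose levels went different ways between strains, with that string in capitals and each stretch on the minus strand.
Mup2, chr4:60139857-60139916: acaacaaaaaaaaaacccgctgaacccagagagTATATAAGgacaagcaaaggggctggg
Mup15, chr4:61439705-61439764: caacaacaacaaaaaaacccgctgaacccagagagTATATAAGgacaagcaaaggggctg
Mup17, chr4:61595833-61595892: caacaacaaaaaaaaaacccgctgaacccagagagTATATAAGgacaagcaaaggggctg
Mup10, chr4:60582156-60582215: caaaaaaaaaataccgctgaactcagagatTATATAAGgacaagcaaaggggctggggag
Mup3, chr4:62087318-62087377: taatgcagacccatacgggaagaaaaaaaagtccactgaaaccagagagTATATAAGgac
Mup15 and Mup17 were identical over 247 aligned upstream bases, and Mup2 and Mup15 differed at 2 of 242. Mup11 differed from Mup2 at 1 of 222. Mup10 differed from Mup2 at 14 of 247 and Mup3 from Mup2 at 22 of 196. Mup7 lined up with these genes over part of its window only. With free end gaps it differed from Mup2 at 2 of 116 aligned bases, from Mup11 at 2 of 144 and from Mup10 at 4 of 115, while end to end it was 41.56% to 49.58% identical to the other 5 near-identical genes. Each window ends at the annotated start of its own gene, so both the alignments and the strings found depend on where that start was placed. The string TTCNNNGAA, the core of sites that STAT proteins bind, was in none of the 8 windows on either strand and in 7.02% of all promoters, where N is any base. A match or its absence in this window is a description of letters and not of binding. The sequences are those of the reference strain only.

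Summed over the 10 genes, the Mup level was highest in C57BL/6J and DBA/2J and lowest in CAST/EiJ and WSB/EiJ. The 3 C57BL/6J libraries held 18720.1, 23397 and 23246 CPM, and the DBA/2J libraries 20669.5, 21483 and 15806. NZO/HlLtJ held 14871, 14497 and 15687 CPM and PWK/PhJ 19301, 10836 and 10331, with replicate 1 the high one. The remaining strains were lower, and of their libraries only the highest of A/J overlapped those of these 4 strains. 129S1/SvImJ averaged 7452 ± 2469.8 CPM (SD, n = 3), A/J 6547 ± 4063, NOD/ShiLtJ 5611 ± 684, WSB/EiJ 3528 ± 1440.1 and CAST/EiJ 3096 ± 455. The A/J libraries were the most spread, at 5961, 2809 and 10870.5 CPM. Of the 8 neighbouring pairs in the order of strains, 3 did not overlap, with no such count taken over all genes for comparison.

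The order changed when the other 11 annotated Mup genes were added. CAST/EiJ rose in that order from the last place to the middle, with 20067 ± 2718 CPM over 21 genes, beside 3096 ± 455 over the 10. WSB/EiJ reached 13600.2 ± 6054 CPM. C57BL/6J stayed first with 33957 ± 4889, ahead of DBA/2J with 30221 ± 6237 and PWK/PhJ with 26219 ± 6764. NOD/ShiLtJ was last with 7661 ± 1069 CPM and its libraries held 6588, 8726 and 7669 CPM. Over the 21 genes, 1 of the 8 neighbouring pairs did not overlap, again without a count over all genes. The sum over the 15 near-identical genes alone gave nearly the same picture, with 31697 ± 4682 CPM in C57BL/6J, 19510.2 ± 2543 in CAST/EiJ and 6840.3 ± 1154 in NOD/ShiLtJ.

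**Figure D1:**
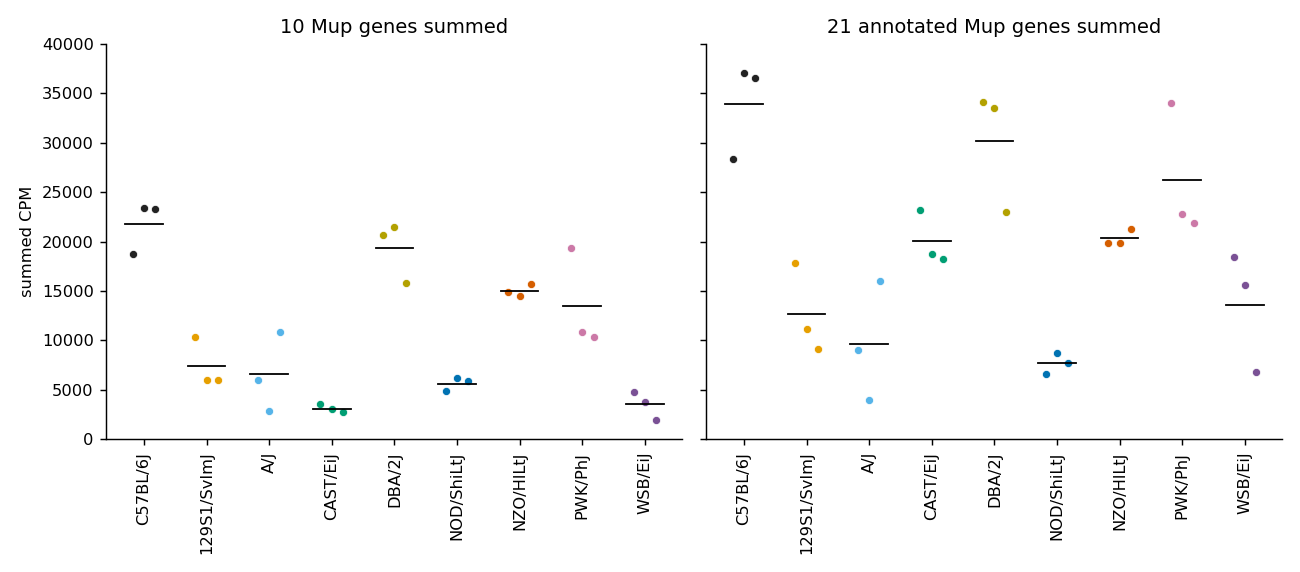
Summed CPM on a linear axis for the 10 Mup genes (left) and all 21 annotated Mup genes (right), by strain; points are libraries and lines are means (n = 3). CAST/EiJ averages 3096 CPM on the left and 20067 on the right, while C57BL/6J is highest in both.

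All 10 genes differed among the 9 strains by edgeR's quasi-likelihood F test with Benjamini-Hochberg adjustment over 14482 genes, where 74.2% of all genes tested were called at an adjusted p under 0.05. All 10 passed the filter on low counts. With that background the call alone says little of these genes, so the size of the differences is given. The adjusted p ran from 3.42e-15 for Mup11 to 3.32e-04 for Mup21. On the scale of log2(CPM + 0.5), the strain means of Mup15 spanned 11.11 units, those of Mup2 9.49 and those of Mup21 2.38, compared with a median of 0.94 over all genes tested. The added 0.5 limits the span of Mup15, which was close to 0 in several strains, and understates the change of low genes. A range larger than that of Mup2 was found in 0.0691% of genes, and one larger than that of Mup21 in 9.83%. Libraries of the same strain also differed more than usual. The within-strain SD on the same scale was 0.77 for Mup7, 0.76 for Mup20 and 0.72 for Mup1, compared with a median of 0.25 over all genes tested.

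Pairwise, 214 of the 360 tests of a Mup gene between 2 strains were called, against 23.4% of such tests over all genes. Mup1 differed in 29 of 36 strain pairs, Mup10 in 28, Mup17 in 27, Mup2 in 25, Mup3 in 24 and Mup15 in 22. Mup11 and Mup20 differed in 18 each, Mup7 in 13 and Mup21 in 10. The median gene differed in 8. Of the 80 pairs of strains next to each other in the order of a gene's means, 25 had libraries that did not overlap. No such count was taken over all genes, so whether 25 of 80 is unusual is not known. Only 14 of these 25 were called, so an order stated below by libraries that do not overlap is not by itself a called difference.

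**Figure D2:**
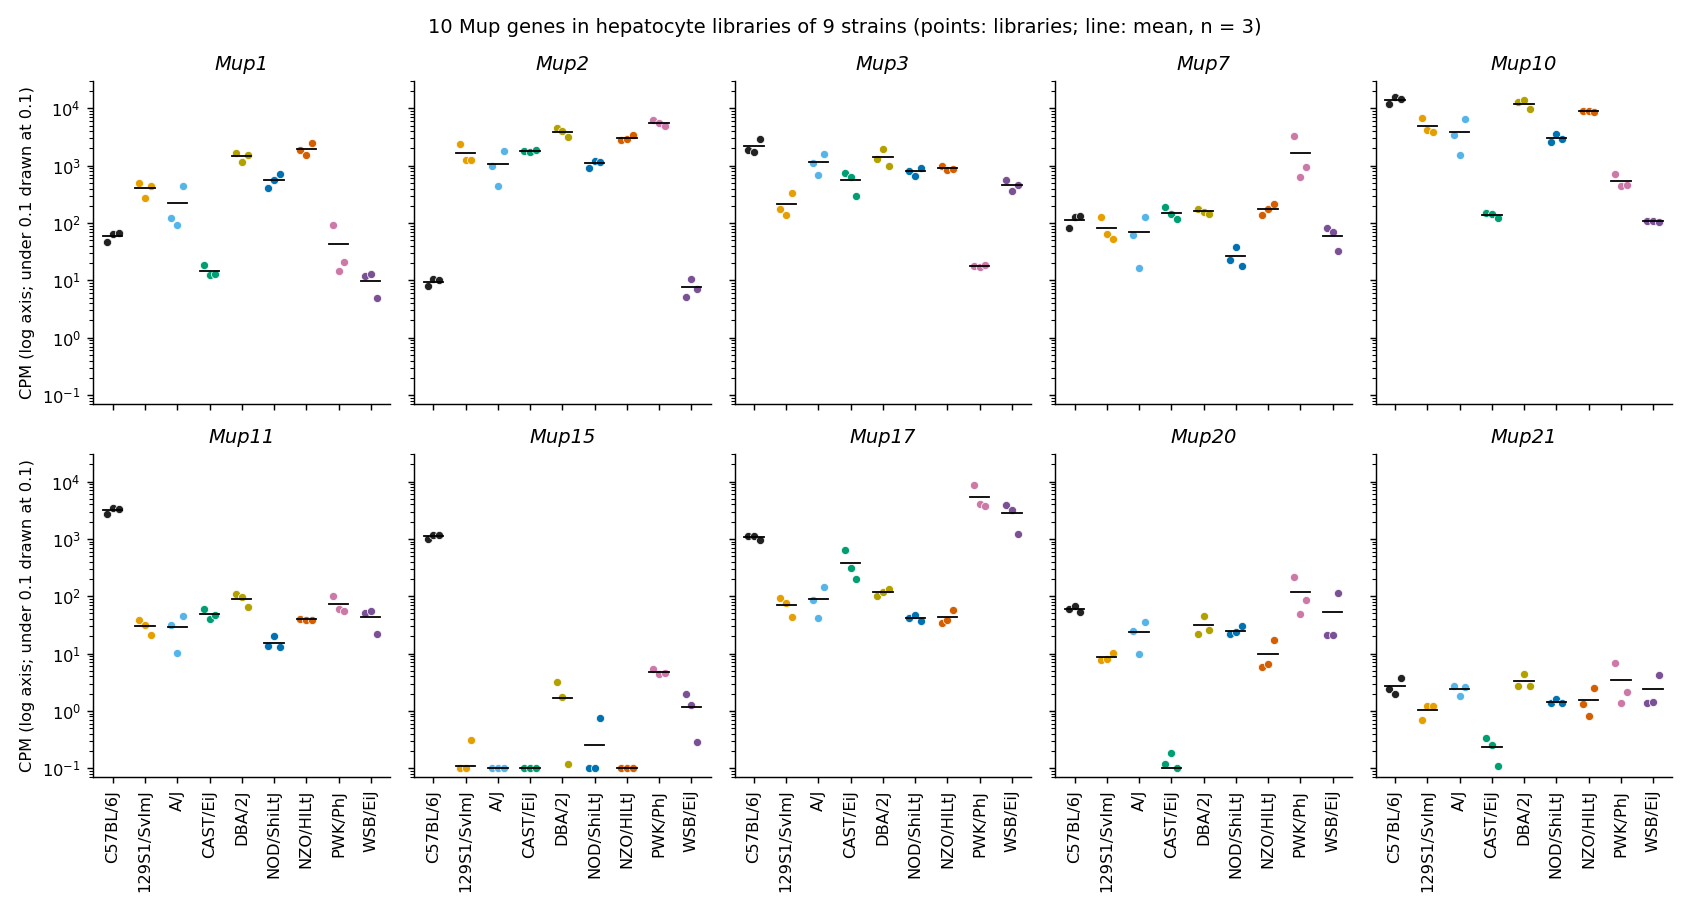
CPM of the 10 genes in each library on a log axis, by strain; points are libraries, lines are means (n = 3), and values under 0.1 are drawn at 0.1. Mup11 and Mup15 stand out high in C57BL/6J, Mup2 is low in C57BL/6J and WSB/EiJ, Mup3 is low in PWK/PhJ and Mup20 in CAST/EiJ.

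Mup15 and Mup11, both of the near-identical group, were high in C57BL/6J alone. The C57BL/6J libraries held 1006, 1147 and 1157 CPM of Mup15. PWK/PhJ came next with 5.28, 4.39 and 4.51 CPM, and its libraries overlapped those of neither C57BL/6J above nor DBA/2J below (1.68 ± 1.52 CPM), although its difference from DBA/2J was not called (log2 1.54, edgeR adjusted p = 0.112). The fitted log2 fold change of PWK/PhJ against C57BL/6J was -7.87 ± 0.78 (SE, edgeR adjusted p = 1.64e-07). In A/J, CAST/EiJ and NZO/HlLtJ no library held more than 3 counts of Mup15. Set against a floor of 3 counts per library, the Mup15 level assigned in C57BL/6J exceeded that of A/J 8359-fold or more. The same bound was 9910-fold for CAST/EiJ and 13311-fold for NZO/HlLtJ. These bounds cover counting error only and not the division of reads, since no 50-base window is unique to Mup15. Mup2 and Mup15 summed to 1113 ± 85.7 CPM in C57BL/6J and 1087 ± 693 in A/J. The sum was 1801 ± 92.7 CPM in CAST/EiJ and 3054 ± 348 in NZO/HlLtJ. In 129S1/SvImJ and NOD/ShiLtJ most of the Mup15 count came from a single library each, so their fitted values move with it. Without replicate 3, the value was -17.91 (adjusted p = 2.67e-07) in 129S1/SvImJ and -17.92 (adjusted p = 7.76e-08) in NOD/ShiLtJ, beside -13.33 ± 1.05 and -12.08 ± 0.98 with all libraries. For DBA/2J the value moved from -9.41 ± 0.85 to -10.35 (adjusted p = 8.36e-07) without replicate 2 and to -8.79 (adjusted p = 2.69e-07) without replicate 4. For WSB/EiJ it moved from -9.86 ± 0.87 to -10.45 (adjusted p = 7.08e-07) without replicate 2. In 129S1/SvImJ it was -12.71 (adjusted p = 5.18e-07) without replicate 2, in NOD/ShiLtJ -11.48 (adjusted p = 4.45e-07) without replicate 1, and in NZO/HlLtJ -15.03 (adjusted p = 4.18e-07) without replicate 2, beside -14.43 ± 1.11 with all libraries. All these values stayed far below C57BL/6J. Such fitted values of nearly empty groups depend on the prior count of the model.

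Mup11 stood at 2691, 3448 and 3359 CPM in C57BL/6J. The next strain, DBA/2J, held 111, 95.4 and 64.2 CPM and did not overlap it. NOD/ShiLtJ was lowest with 15.6 ± 4.04 CPM. The log2 fold change against C57BL/6J ran from -5.14 ± 0.44 in DBA/2J (edgeR adjusted p = 5.86e-09) to -7.67 ± 0.50 in NOD/ShiLtJ (adjusted p = 2.89e-11), and all 8 strains were lower. Mup18, which shares all but 1 of Mup11's coding bases, was counted at 4649 ± 641 CPM in C57BL/6J and at 4366 ± 503 in PWK/PhJ. The sum of Mup11 and Mup18 was 7815 ± 1054 CPM in C57BL/6J, 4439 ± 529 in PWK/PhJ and 628 ± 82.3 in CAST/EiJ, and at most 106 ± 24.2 elsewhere. The PWK/PhJ value of Mup11 alone was 72.98 ± 25.8 CPM.

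Mup2, unlike Mup15, was nearly absent in C57BL/6J, at 7.98, 10.4 and 10.04 CPM, and in WSB/EiJ, at 5.07, 10.6 and 7.03 CPM, and these 2 strains overlapped. Mup15 was low in WSB/EiJ too, at 1.99, 1.26 and 0.29 CPM, so that the genes went opposite ways in C57BL/6J but not in WSB/EiJ. The other 7 strains all lay above 400 CPM in every library. PWK/PhJ, second in Mup15, was highest in Mup2 with 6199.6, 5589.8 and 5022 CPM, and did not overlap DBA/2J with 4528, 4026 and 3161 CPM, a difference that was not called (log2 0.52, edgeR adjusted p = 0.275). CAST/EiJ was the least spread, at 1785, 1717 and 1901 CPM. The log2 fold change against C57BL/6J was 9.21 ± 0.48 in PWK/PhJ (edgeR adjusted p = 3.06e-13), 6.84 ± 0.44 in A/J (adjusted p = 2.63e-11) and -0.32 ± 0.35 in WSB/EiJ (adjusted p = 0.629). Since no 50-base window tells Mup2 from other genes, the sum of Mup2 and Mup15 was also taken. It was 1113 ± 85.7 CPM in C57BL/6J, which lay among the values of A/J (1087 ± 693) and NOD/ShiLtJ (1096 ± 165). WSB/EiJ remained apart with 8.76 ± 2.73 CPM. In this sum C57BL/6J overlapped A/J and NOD/ShiLtJ, from which it was far apart in either gene alone.

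**Figure D3:**
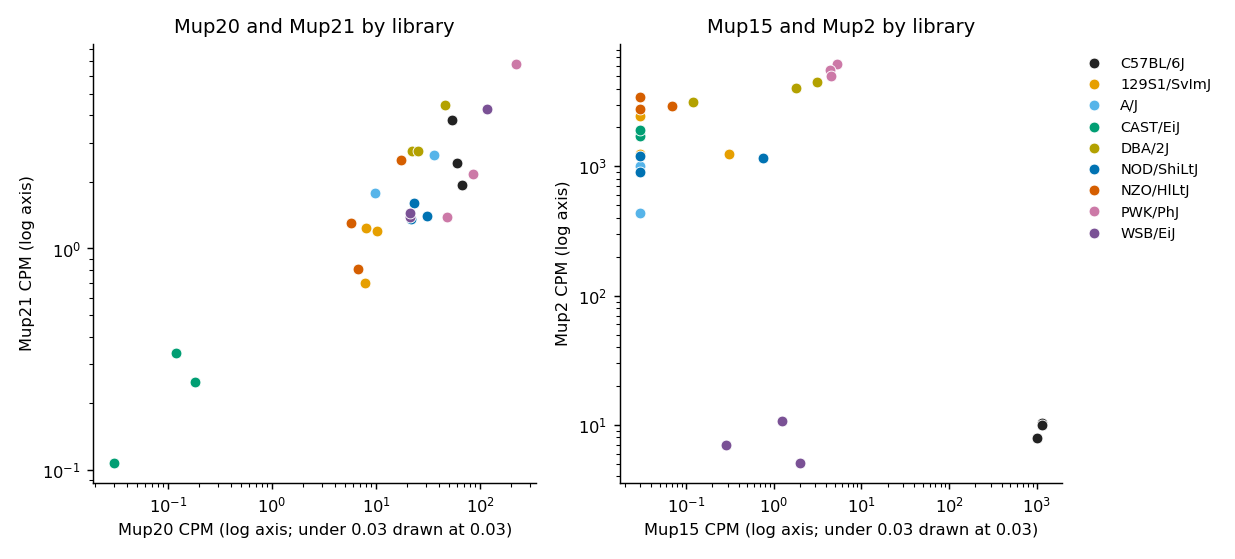
Levels of Mup20 and Mup21 (left) and of Mup15 and Mup2 (right) in each of the 27 libraries, CPM on log axes, coloured by strain. Mup20 and Mup21 rise together with CAST/EiJ lowest, while C57BL/6J alone is high in Mup15 and, with WSB/EiJ, low in Mup2.

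Mup10 was far lower in the wild-derived strains than in the rest. C57BL/6J held 11831, 15662 and 14544 CPM and DBA/2J 12720.3, 13869 and 9761, which overlapped. NZO/HlLtJ followed at 9052, 8925 and 8589.99 CPM without overlap, but differed from neither DBA/2J (edgeR adjusted p = 0.357) nor C57BL/6J (adjusted p = 0.127) by a called amount. 129S1/SvImJ, A/J and NOD/ShiLtJ averaged 4995 ± 1685, 3878 ± 2578 and 3046 ± 501 CPM. PWK/PhJ held 730.3, 451 and 459 CPM, CAST/EiJ 151, 145 and 123 and WSB/EiJ 108, 107 and 104, and the libraries of each did not overlap those of its neighbours in the order. The difference between CAST/EiJ and WSB/EiJ was not called (log2 0.39, edgeR adjusted p = 0.369). The log2 fold change against C57BL/6J was -7.04 ± 0.43 in WSB/EiJ (edgeR adjusted p = 5.06e-12), -6.65 ± 0.42 in CAST/EiJ (adjusted p = 6.59e-12) and -4.68 ± 0.38 in PWK/PhJ (adjusted p = 1.06e-09). That of A/J was -1.85 ± 0.34 (adjusted p = 4.66e-04) and became -2.48 (adjusted p = 9.07e-06) without A/J replicate 3.

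Mup1 was highest in NZO/HlLtJ and DBA/2J. Their libraries held 1845, 1522 and 2443 CPM and 1676, 1175 and 1533 CPM and overlapped, while NOD/ShiLtJ, the next, did not reach them with 408, 564 and 724 CPM, although its difference from DBA/2J was not called (edgeR adjusted p = 0.115). C57BL/6J held 47.2, 64.1 and 67.4 CPM. WSB/EiJ was lowest with 11.8, 12.8 and 4.85 CPM, and overlapped CAST/EiJ with 18.3, 12.4 and 13.1. Against C57BL/6J the log2 fold change was 5.02 ± 0.63 in NZO/HlLtJ (edgeR adjusted p = 2.54e-06) and -2.60 ± 0.57 in WSB/EiJ (adjusted p = 0.00237). In PWK/PhJ replicate 1 held 93.7 CPM and the others 14.3 and 20.6. The PWK/PhJ difference of -0.48 ± 0.54 (adjusted p = 0.56) therefore became -1.77 (adjusted p = 0.0104) without replicate 1.

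Mup17 was highest in PWK/PhJ and WSB/EiJ. PWK/PhJ libraries held 8562, 4008 and 3729 CPM and WSB/EiJ libraries 3966, 3152 and 1232, which overlapped. C57BL/6J followed with 1121, 1124 and 946 CPM and CAST/EiJ with 640.5, 314 and 201, and neither overlapped the strain above it. The other 5 strains averaged between 42.2 CPM in NOD/ShiLtJ and 118 in DBA/2J. The log2 fold change against C57BL/6J was 2.35 ± 0.46 in PWK/PhJ (edgeR adjusted p = 3.94e-04) and -4.66 ± 0.51 in NOD/ShiLtJ (adjusted p = 2.87e-07). WSB/EiJ was called higher at 1.39 ± 0.44 (adjusted p = 0.0367), but that call was lost without any single C57BL/6J library or without WSB/EiJ replicate 2 or 3. The value was 1.04 (adjusted p = 0.171) without WSB/EiJ replicate 2 and 1.30 (adjusted p = 0.0937) without its replicate 3. Without C57BL/6J replicate 1, 2 or 4 it stayed about as large, at 1.43 (adjusted p = 0.0819), 1.43 (adjusted p = 0.0828) and 1.31 (adjusted p = 0.116). CAST/EiJ was called lower at -1.47 ± 0.44 (adjusted p = 0.0117), and this was lost at -1.15 (adjusted p = 0.0692) without CAST/EiJ replicate 5 and at -1.34 (adjusted p = 0.0512) without replicate 4.

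Mup7 was high in PWK/PhJ only. Its libraries held 3363, 640.2 and 936 CPM and did not overlap those of NZO/HlLtJ, the next strain, at 141, 177 and 219 CPM. NOD/ShiLtJ was lowest with 22.7, 37.7 and 18.1 CPM. The remaining 6 strains averaged between 60.5 and 159.7 CPM. Against C57BL/6J the log2 fold change was 3.86 ± 0.61 in PWK/PhJ (edgeR adjusted p = 3.24e-05) and 2.79 (adjusted p = 2.67e-04) without its replicate 1. That of NOD/ShiLtJ was -2.12 ± 0.57 (adjusted p = 0.0125), a call lost at -1.91 (adjusted p = 0.0686) without NOD/ShiLtJ replicate 3 and at -2.02 (adjusted p = 0.0538) without replicate 1.

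PWK/PhJ replicate 1 also stood apart in marker genes of liver cells. The 10 Kupffer cell markers (liver macrophages) summed to 414 CPM in it and to 142 CPM in each of the other 2 PWK/PhJ libraries. The 10 endothelial markers summed to 776 CPM there, and to 227 and 275 CPM in the others. No marker of either list was at 0 in all libraries. Hepatocyte markers were also highest in replicate 1, at 225794 CPM beside 170750 and 162724, as were stellate cell markers, at 190.4 CPM beside 133 and 139. The summed range over all libraries was 33.4 to 414 CPM for Kupffer cell markers and 62.2 to 776 CPM for endothelial markers. The lowest sum of Kupffer cell markers belonged to DBA/2J replicate 4, which held 33.4 CPM beside 125 and 186 in the other DBA/2J libraries. It held 77.9 CPM of endothelial markers beside 207 and 181, and 56.9 CPM of stellate cell markers beside 122 and 110.02. Its hepatocyte markers were also the lowest of the strain, at 149162 CPM beside 180578 and 247823. Replicate 4 was also the lowest DBA/2J library in the summed level of the 10 Mup genes. The part of these markers in the Mup levels of both libraries was not tested. In bulk samples, fewer cells of a type and less RNA per cell cannot be told apart.

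Mup3, 1 of the genes with mostly unique sequence, was highest in C57BL/6J and very low in PWK/PhJ. C57BL/6J held 1871, 1745 and 2974 CPM and DBA/2J 1325, 1989.5 and 983, which overlapped. A/J, NZO/HlLtJ and NOD/ShiLtJ averaged 1146 ± 468, 898 ± 80.3 and 793 ± 126 CPM. CAST/EiJ and WSB/EiJ overlapped at 557 ± 235 and 462 ± 105 CPM. 129S1/SvImJ overlapped neither neighbour in the order at 174, 138 and 339.6 CPM, and PWK/PhJ was lowest at 18.1, 17.04 and 18.9 CPM. The PWK/PhJ libraries thus agreed within 2 CPM of each other and lay far under every other strain. In log2 fold change against C57BL/6J this was -6.93 ± 0.45 in PWK/PhJ (edgeR adjusted p = 1.55e-11) and -3.34 ± 0.38 in 129S1/SvImJ (adjusted p = 6.00e-07). That of NZO/HlLtJ was -1.29 ± 0.35 (adjusted p = 0.00882), which was lost at -1.01 (adjusted p = 0.0675) without C57BL/6J replicate 4. Those of A/J at -0.94 ± 0.35 (adjusted p = 0.111) and DBA/2J at -0.62 ± 0.35 (adjusted p = 0.33) did not pass. That of A/J passed with no filter on low counts at -0.94 (adjusted p = 0.0495) and with the replicate block at -1.11 (adjusted p = 0.0371).

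Mup20 encodes darcin, a urinary protein of male mice that attracts females. In these female mice it was present in 8 strains and close to 0 in CAST/EiJ, where the libraries held 0.120, 0.181 and under 0.001 CPM, from at most 5.99 estimated counts. C57BL/6J held 60.02, 67.6 and 53.97 CPM. PWK/PhJ held 220.1, 48.2 and 84.5 CPM and WSB/EiJ 21.2, 21.1 and 115, so that a single library of each strain lay far above its others. 129S1/SvImJ, with 7.75, 8.07 and 10.2 CPM, and NZO/HlLtJ, with 5.73, 6.66 and 17.2, were the lowest of the 8. The only gap between neighbours was that of 129S1/SvImJ above CAST/EiJ. Log2 fold changes against C57BL/6J were -8.99 ± 0.96 in CAST/EiJ (edgeR adjusted p = 7.56e-08), -2.80 ± 0.61 in 129S1/SvImJ (adjusted p = 0.00229) and -2.62 ± 0.60 in NZO/HlLtJ (adjusted p = 0.00271). These were -9.59 (adjusted p = 2.96e-06) without CAST/EiJ replicate 4 and -3.29 (adjusted p = 0.00201) without NZO/HlLtJ replicate 3.

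Mup21 was scarce in all strains, with 3.46 CPM in the highest, PWK/PhJ (6.81, 1.38 and 2.18 CPM). CAST/EiJ was lowest with 0.336, 0.249 and 0.107 CPM, from at most 11.4 estimated counts in a library. 129S1/SvImJ came next with 0.701, 1.24 and 1.201 CPM and did not overlap CAST/EiJ. C57BL/6J held 2.43, 1.94 and 3.802 CPM. CAST/EiJ was the only strain called against C57BL/6J, at -3.49 ± 0.61 (edgeR adjusted p = 8.49e-05). 129S1/SvImJ at -1.36 ± 0.51 (adjusted p = 0.0599) missed the threshold here, and passed it with DESeq2 at -1.39 (adjusted p = 0.0385), with no filter on low counts at -1.36 (adjusted p = 0.032) and in a fit on the 2 strains alone at -1.37 (adjusted p = 0.0251). It also passed when PWK/PhJ replicate 1, PWK/PhJ replicate 2 or WSB/EiJ replicate 4 was left out, with values of -1.36 (adjusted p = 0.026), -1.36 (adjusted p = 0.0441) and -1.36 (adjusted p = 0.0434).

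Set beside C57BL/6J, the 10 genes moved in both directions in every strain, and the comparisons share the 3 C57BL/6J libraries. In 129S1/SvImJ 2 genes were higher and 6 lower, beside 9.2% and 11.7% of all genes tested. In A/J 2 were higher and 4 lower, beside 3.81% and 4.03%. A/J's count of 2 holds Mup1 at 1.89 ± 0.55 (edgeR adjusted p = 0.0318), which was lost at 0.87 (adjusted p = 0.412) without A/J replicate 3 and leaves 1. The call was also lost without C57BL/6J replicate 1, 2 or 4, where the value stayed about as large at 1.75 (adjusted p = 0.13), 1.95 (adjusted p = 0.0864) and 1.99 (adjusted p = 0.0731). In CAST/EiJ 1 was higher and 8 lower, beside 18.4% and 19.7%. In DBA/2J 2 were higher and 3 lower, beside 4.9% and 4.16%.

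In NOD/ShiLtJ 2 genes were higher than in C57BL/6J and 6 lower, beside 7.39% and 8.51% of all genes tested. In NZO/HlLtJ 2 were higher and 5 lower, beside 13.2% and 16.2%. In PWK/PhJ 3 were higher and 4 lower, beside 12.5% and 13.7%. In WSB/EiJ 1 was higher and 5 lower, beside 6.88% and 6.76%. The 1 in WSB/EiJ is Mup17, and the count fell to 0 without C57BL/6J replicate 1, 2 or 4 or WSB/EiJ replicate 2 or 3. Mup1 and Mup2 were the genes called higher in NZO/HlLtJ, NOD/ShiLtJ, A/J, DBA/2J and 129S1/SvImJ. Mup2, Mup7 and Mup17 were those called higher in PWK/PhJ, and Mup2 that in CAST/EiJ.

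Markers of liver cells differed in the same comparisons. Of 10 Kupffer cell markers, 10 were called lower than in C57BL/6J in 129S1/SvImJ (median log2 difference -2.14), 10 in CAST/EiJ (-2.13), 9 in NZO/HlLtJ (-1.72) and 8 in NOD/ShiLtJ (-1.66). The count was 3 in WSB/EiJ, 1 in PWK/PhJ and 0 in A/J and DBA/2J, and none was called higher in any strain. Of 10 endothelial markers, 8 were called lower in NZO/HlLtJ (median -1.62) and at most 2 in any other strain. In PWK/PhJ 1 was called higher and none lower (median 0.89). Of 10 stellate cell markers, 3 were called lower in NZO/HlLtJ, 2 in CAST/EiJ and 1 in 129S1/SvImJ. In the other direction, 2 were called higher in PWK/PhJ, 1 in DBA/2J and 1 in NOD/ShiLtJ. Of 9 hepatocyte markers, 4 were called lower and 1 higher in NZO/HlLtJ, and 3 lower and 2 higher in CAST/EiJ. NOD/ShiLtJ had 2 higher and 1 lower, and 129S1/SvImJ 1 in each direction. With none lower, 3 were called higher in A/J, 3 in WSB/EiJ and 2 in DBA/2J, and PWK/PhJ had no call. All these marker counts are to be read beside the shares of all genes given above, such as 19.7% lower in CAST/EiJ and 16.2% in NZO/HlLtJ. The part of the markers in the Mup differences was not tested.

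**Figure D4:**
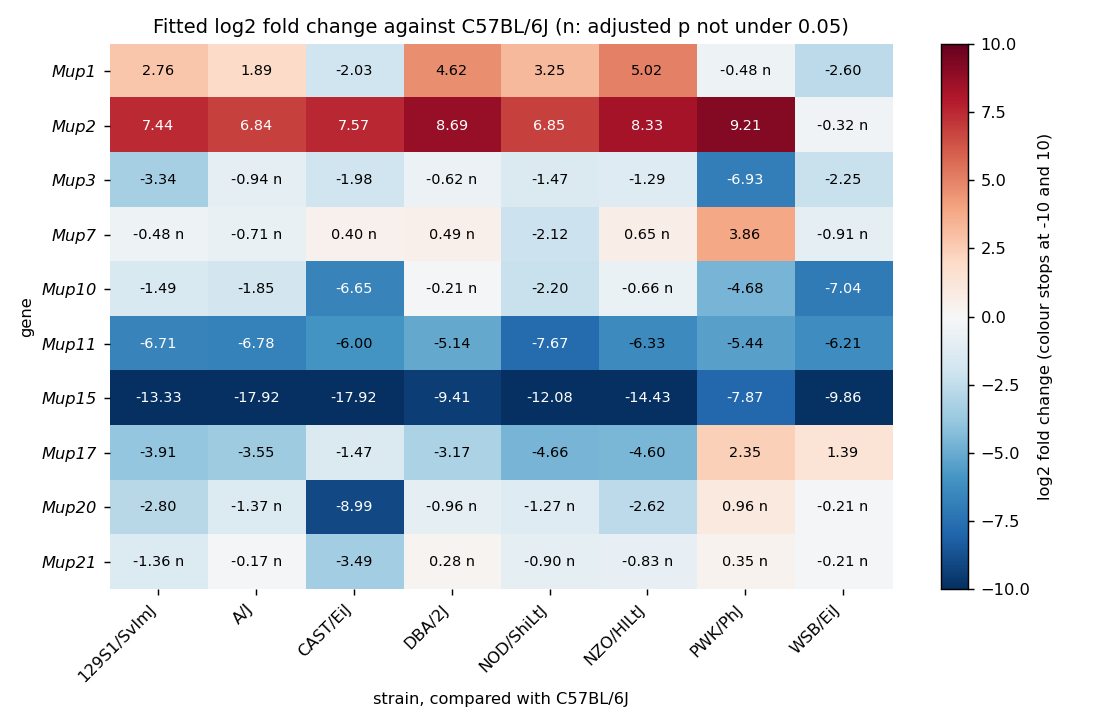
Fitted log2 fold changes of the 10 genes (rows) in 8 strains (columns) against C57BL/6J, on a colour scale that stops at -10 and 10; n marks values whose adjusted p is not under 0.05. Mup11 and Mup15 are lower in all 8 strains, Mup2 is higher in 7 and Mup17 is higher in PWK/PhJ and WSB/EiJ only.

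The make-up of the family was compared per length, as the share of each gene in the summed CPM per kilobase of the 21 genes. With the longest transcript as length, the mean share of Mup10 in C57BL/6J and the 5 other classical strains ran from 39.5% ± 2.64 (SD, n = 3) in 129S1/SvImJ to 43.6% ± 2.77 in NZO/HlLtJ. In CAST/EiJ and WSB/EiJ it held 0.696% ± 0.065 and 0.937% ± 0.523. The summed level of those 6 strains spanned 7661 to 33957 CPM. With joined exons as length the share of Mup10 ran from 35.4% in C57BL/6J to 43.6% in NZO/HlLtJ, so its evenness over these strains depends on the length used.

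Other genes filled the rest of the family in different ways. Mup9, outside the 10, was second in NZO/HlLtJ, NOD/ShiLtJ, A/J, DBA/2J and 129S1/SvImJ, with 23.3% to 38.01%, and held 2.48% ± 0.535 in C57BL/6J. C57BL/6J instead held 16.1% ± 1.43 of Mup19, 13.7% ± 0.226 of Mup18 and 9.35% ± 0.152 of Mup11. WSB/EiJ was dominated by Mup19 with 60.7% ± 2.12, followed by Mup17 with 19.98% ± 1.72. CAST/EiJ held 40.1% ± 1.45 of Mup9, 26.3% ± 2.06 of Mup19 and 14.5% ± 2.005 of Mup12. PWK/PhJ held 25.03% ± 4.12 of Mup9, 21.9% ± 3.18 of Mup2, 19.98% ± 4.65 of Mup17 and 16.998% ± 2.21 of Mup18. With joined exons as length the order of these 4 turned over, to 24.6% for Mup17, 21.1% for Mup18, 18.9% for Mup2 and 18.9% for Mup9. The 10 genes together held 15.1% of the family in CAST/EiJ, 26.3% in WSB/EiJ, 50.03% in PWK/PhJ and 73.4% in NZO/HlLtJ. The aligned coding bases of Mup9, Mup18 and Mup19 are within 1 base of each other, beside a gap of 3 bases for Mup18. No window of 50 or 100 bases was unique to Mup19. These shares thus carry the uncertainty of divided reads.

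**Figure D5:**
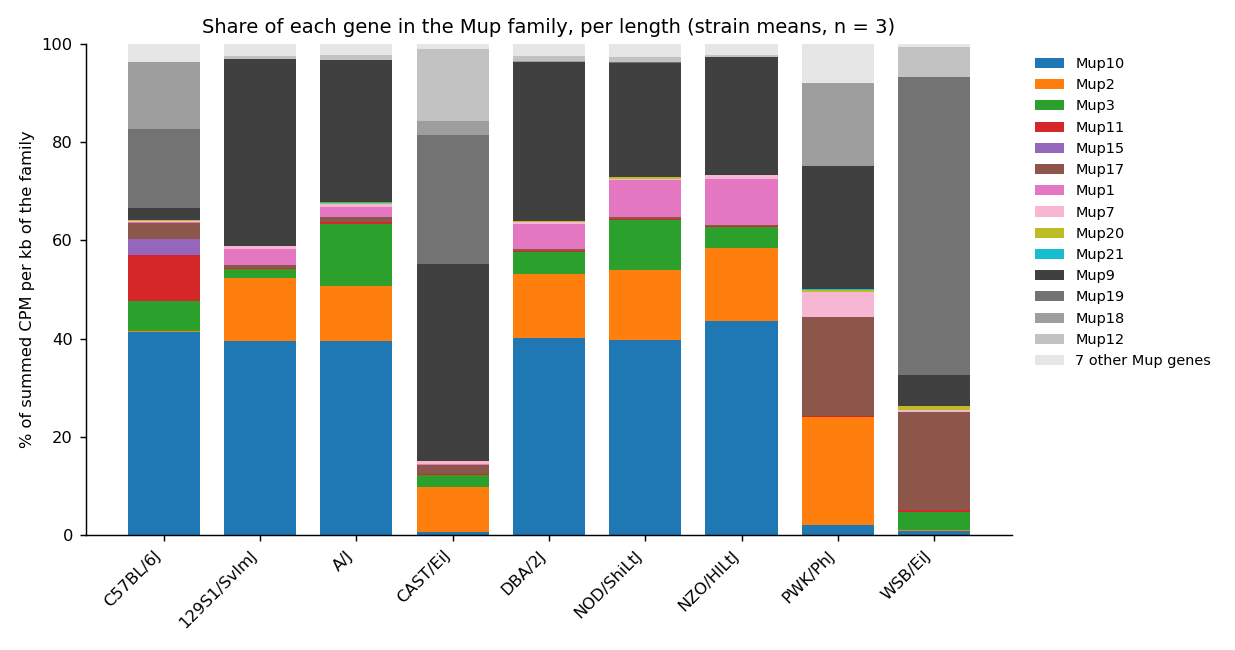
Share of each gene in the summed CPM per kilobase of the 21 annotated Mup genes, as stacked bars of strain means (n = 3); colours are the 10 genes and greys the others. Lengths are those of the longest transcript. Mup10 fills 39.5% to 43.6% of the bar in the 6 classical laboratory strains, and Mup19 most of it in WSB/EiJ.

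Per length, Mup10 was also the highest of the 10 genes in C57BL/6J, at 15116 ± 2125 CPM per kilobase, followed by Mup11 at 3404 ± 445 and Mup3 at 2232 ± 687. In PWK/PhJ the order was Mup2 at 6045 ± 635, Mup17 at 5861 ± 2927 and Mup7 at 1594 ± 1446 CPM per kilobase. In WSB/EiJ Mup17 led with 3002 ± 1515, ahead of Mup3 with 469 ± 106. In CAST/EiJ Mup2 led with 1943 ± 99.96, ahead of Mup3 with 566 ± 239. Mup10 led among the 10 in the 6 classical strains and another gene in the 3 wild-derived ones, with either length, although with joined exons Mup17 led in PWK/PhJ and Mup3 came just before Mup11 in C57BL/6J.

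From library to library within a strain, genes of the near-identical group moved together. The deviations of log2 CPM from the strain mean had a Pearson r of 0.475 to 0.888 in all 15 pairs of Mup1, Mup2, Mup7, Mup10, Mup11 and Mup17 over 27 libraries, which share the division of reads. Between strains the same 15 pairs had r from -0.814 to 0.818 over 9 strain means, with 8 positive. The lowest was that of Mup1 with Mup17. The 6 genes had lower within-strain r with Mup3, Mup20 and Mup21, from 0.0837 to 0.471 in 18 pairs. Mup15 was left out of this count since it was near 0 in 8 strains.

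Mup20 and Mup21 varied together both between and within strains. Over 27 libraries r was 0.885 and Spearman's rho 0.799, and without the CAST/EiJ libraries r was 0.767 over 24. Over the deviations from the strain mean r was 0.842, and 0.843 without CAST/EiJ. Replicate 1 of PWK/PhJ and replicate 4 of WSB/EiJ were high in both genes. WSB/EiJ replicate 4 was at the same time the lowest WSB/EiJ library of Mup1, Mup7, Mup11 and Mup17. The Mup20 and Mup21 coding sequences differ from each other far more than those of the near-identical group.

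The genes outside the family whose level was most like that of the 10 summed genes over 27 libraries were Tmem254a (r = 0.848), Tmem254c (0.826) and Cldn2 (0.805), out of 6321 genes averaging at least 10 CPM. For Mup3 they were Mmp15 (0.904), BC017158 (0.903) and Serpina1c (0.890), with lower Spearman's rho of 0.835, 0.683 and 0.537. Serpina1c, a serine protease inhibitor gene, had strain means from 55.2 to 11931 CPM. For Mup20 they were Ugt2b5 (0.924), Tmem123 (0.896) and Tmem38b (0.895), and for Mup21 Tmem123 (0.828), Cpn1 (0.827) and Tmem14c (0.825). Spearman's rho was 0.819, 0.700 and 0.732 for those of Mup20, 0.725, 0.648 and 0.626 for those of Mup21, and 0.833, 0.826 and 0.785 for those of the summed genes. These are the top of a ranked list over libraries that fall into 9 strains.

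Other genes of the family and of its known control were taken by list. Of 11 further Mup genes in the table, 10 were tested and were called among strains. Mup6 had at least 14.1 counts in each PWK/PhJ library and at most 8 in any other, so it passed the filter on low counts only through the strain where it was high, and its call is no result. Mup9 and Mup19 were the most abundant of them, with means over 27 libraries of 4423 and 2123 CPM, followed by Mup18 at 1069, Mup12 at 493, Mup14 at 326 and Mup16 at 287 CPM. Mup13, Mup8, Mup5 and Mup6 averaged 5.01, 1.43, 0.385 and 0.192 CPM. Mup4 was listed at 0 in all 27 libraries. All 8 tested of 9 related secreted lipocalins differed too. Of them 7 were called lower in CAST/EiJ than in C57BL/6J, beside 19.7% of all genes tested, with a median log2 difference of -1.33, beside -0.02 over all genes. In NZO/HlLtJ 5 were called lower (median -0.80), beside 16.2%, and in 129S1/SvImJ 3 (median -0.40), beside 11.7%. In WSB/EiJ 3 were called higher (median 0.47), beside 6.88%. At most 2 were called in either direction in the other 4 strains. Of 12 tested growth hormone signalling genes 6 differed, and of 19 nuclear factors tied to Mup or sex-biased liver genes 12 differed. All these counts among strains, those of the Mup genes and lipocalins included, are to be read beside the 74.2% of all genes. Ghr, the growth hormone receptor, ran from 277 CPM in CAST/EiJ to 521 in A/J (edgeR adjusted p = 0.00414), and the log2 fold change of CAST/EiJ against C57BL/6J was -0.86 ± 0.18 (adjusted p = 6.45e-04). Stat5b, which carries the growth hormone signal to DNA, ran from 54.5 to 81.3 CPM (adjusted p = 0.012). Socs2, its feedback inhibitor, ran from 6.92 CPM in PWK/PhJ to 30.7 in NZO/HlLtJ (adjusted p = 0.00291).

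Among the nuclear factors, Zhx2, a repressor of several liver genes, ran from 6.498 to 11.6 CPM (edgeR adjusted p = 0.0039). Rsl1, a zinc finger gene known to restrain Mup and other sex-biased genes in females, was scarce at 0.209 CPM in NZO/HlLtJ to 1.28 in CAST/EiJ (adjusted p = 8.85e-04). Against C57BL/6J its log2 fold change was -1.99 ± 0.58 in DBA/2J (adjusted p = 0.0284), -2.41 ± 0.58 in NZO/HlLtJ (adjusted p = 0.00354) and -2.43 ± 0.60 in WSB/EiJ (adjusted p = 0.00645). DBA/2J and NZO/HlLtJ were among the higher strains in the summed level of the 10 genes and WSB/EiJ among the lower. Over all 21 Mup genes NZO/HlLtJ held 20339 CPM and WSB/EiJ 13600. A link between the level of Rsl1 and that of the Mup genes was not tested. Cux2, a factor more abundant in female liver, ran from 7.26 to 44.8 CPM (adjusted p = 0.0397). Bcl6 (adjusted p = 0.0627) and the glucocorticoid receptor gene Nr3c1 (adjusted p = 0.18) did not pass. Bcl6 averaged 3.89 CPM in WSB/EiJ and 25.6 in PWK/PhJ, and Nr3c1 57.9 CPM in NOD/ShiLtJ and 72.2 in A/J.

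Genes known to differ between male and female liver also varied between strains. All 15 tested of 16 male-biased genes and all 20 female-biased genes differed among strains, beside 74.2% of all genes tested. Of the male-biased genes, Cyp7b1, a steroid hydroxylase, was 864 CPM in PWK/PhJ and 373 in CAST/EiJ, against at most 97.4 elsewhere (edgeR adjusted p = 1.34e-13). Cyp2d9 ran from 19.5 CPM in PWK/PhJ to 389.6 in A/J, Ugt2b1 from 259 to 619 in the same strains, and Gstp1 from 84.2 in A/J to 259 in NOD/ShiLtJ. Of the female-biased genes, Cyp3a41a ran from 342 CPM in NOD/ShiLtJ to 7219 in PWK/PhJ, and A1bg from 31.9 in 129S1/SvImJ to 4985 in WSB/EiJ. Cyp2a4 ran from 411 CPM in NOD/ShiLtJ to 3496 in PWK/PhJ, and Sult3a1 from 23.4 in A/J to 1825 in CAST/EiJ. Cyp3a41a and Cyp2a4 belong to families of close copies as well, so their counts share the uncertainty of the Mup genes. With 3 libraries a strain, p-values come from a single fit on all 27 libraries. They rest on a spread between libraries shared by the 9 strains, not on that of the compared strains alone.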

How the data were processed

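Polyadenylated RNA of hepatocytes was sequenced in 27 libraries, 3 for each of 9 strains, per the labels. The authors deposited a table of estimated counts (expected counts) per Ensembl gene, not scaled to depth. The submitters' processing notes name GRCm38, mm10, FastQC 0.11.5 and DESeq2 without a role. The aligner, the counting program, the annotation release and any use of strain genomes are not given in the sources used here. The kit is not stated to keep strand, so overlapping genes are uncertain. Reads of strains unlike the reference may be lost or assigned to the wrong copy, and a count of near-identical genes depends on the rule for shared reads.

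Symbols came from GENCODE M21 (42462 of 43346 IDs). Values were rounded to whole numbers, filtered with filterByExpr by strain (14482 genes) and scaled with TMM (factors 0.722 to 1.226). A single quasi-likelihood model on all 27 libraries (R 4.3.3, edgeR 4.0.16, limma 3.58.1) gave the F test over strains, 8 contrasts with C57BL/6J and all 36 pairs. P-values were adjusted by Benjamini and Hochberg over all genes and called under 0.05. The fit recovered known changes in simulated counts, which had the same relative spread for all genes and no shared reads. That simulation therefore does not bear on reads divided among near-identical copies. CPM values use the TMM-scaled size, and spans, SDs and correlations log2(CPM + 0.5). Floors of 3 counts cover counting error only. Levels per length used the longest transcript. Replicate numbers did not pair libraries (76 same-number pairs of libraries, mean r 0.016). No libraries within a strain agreed within sampling noise. Coding sequences were aligned globally, taking for each gene the transcript with a coding length nearest 543 bases. The alternatives were DESeq2 1.42.0, median-of-ratios size factors, 2 other filters, the replicate block, library sizes without Mup genes, a fit on the 2 strains alone, unrounded counts, joined exon length, all Mup genes and pseudogenes summed, and leaving out each library. The members, the gene lists and the rule for named genes (the 10 members, other Mup genes, 8 control genes, the 4 most abundant genes of each sex-biased list and the 3 genes most like each pattern) were chosen with earlier results of these data known.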

Additional observations from a re-analysis of the deposited data

How the results depend on the processing

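The 80 log2 fold changes of the 10 genes against C57BL/6J were recomputed under 35 alternatives, with 2800 values in all. Of these, 2760 kept direction and side of the threshold, 17 lost the call, 15 gained it and 8 changed sign. The strain effect of each of the 10 genes stayed called in every alternative run for it, with a highest adjusted p of 0.00226, and the called member-by-pair tests ran from 203 to 247 beside 214. The number of genes higher in A/J went from 2 to 1 with the replicate block, and to 1 in a fit on the 2 strains alone. The number lower in A/J went from 4 to 6 with no filter on low counts, by Mup3 and by Mup20 at -1.37 (adjusted p = 0.0447). Mup20 also gained a call in NOD/ShiLtJ with no filter and in NOD/ShiLtJ and DBA/2J in the fit on 2 strains, as Mup10 did in NZO/HlLtJ in that fit and without A/J replicate 2. Leaving out each library, the number of genes called higher ran from 1 to 2 in A/J and from 0 to 1 in WSB/EiJ. Same-numbered libraries did not deviate together (mean r 0.016), so the replicate block pairs nothing known; with it Mup17 in CAST/EiJ became -1.23 (adjusted p = 0.0558) and Mup3 in A/J -1.11 (adjusted p = 0.0371). Signs changed only for values that were not called and only on leaving out a library: Mup21 ran from -0.36 to 0.14 in A/J, from -0.93 to 0.11 in WSB/EiJ and from -0.60 to 0.73 in PWK/PhJ, and Mup20 from -1.52 to 0.18 in WSB/EiJ. Summing all annotated Mup genes and pseudogenes gave 12682 CPM in 129S1/SvImJ, 33965 in C57BL/6J, 20072 in CAST/EiJ, 30232 in DBA/2J, 7663 in NOD/ShiLtJ, 20347 in NZO/HlLtJ, 26222 in PWK/PhJ and 13605 in WSB/EiJ, since more genes are summed; A/J stayed within 1 SD. With joined exons as the length, 43 of 90 family shares moved by over 1 SD, that of Mup10 in C57BL/6J to 35.4%. Counts left unrounded, an alternative chosen after seeing the data, changed no call. Reads that fit several copies limit the 7 near-identical genes, and low counts limit Mup21 and Mup20 in CAST/EiJ.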
